A study of Mus musculus with 8 samples.

Results

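The glomerular endothelial class of a single-cell survey of mouse kidney was examined, taking every cell that the authors' table assigns to the class GEC. It holds 1154 of 77393 cells (1.49%), 1000 from Control and 154 from UUO libraries, and is 1 of 28 classes. Cells of the authors' other endothelial class, Endo (338 cells), were not counted in it. Adult whole kidney of C57BL/6 mice aged 7 weeks was profiled as 10x Chromium 3′ single-cell libraries, 6 titled Control and 2 titled UUO, in which the disease label is unilateral ureteric obstruction. Obstruction was made by ligating the left ureter, and animals were killed on day 7. The same treatment text stands on all 8 samples, so the Control group rests on its titles and disease label, and no source used here says how those animals were handled. The labels mention no genetic alteration, and they do not say whether a library came from 1 animal or from pooled animals.

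Glomerular endothelial cells line the capillaries of the glomerulus, the filter at the head of each nephron. They are flat, fenestrated cells that share a basement membrane with podocytes and pass plasma fluid into the urinary space. Podocytes signal to them with vascular endothelial growth factor A, which they sense through its receptor Kdr. Ehd3, a membrane-trafficking protein, marks them among kidney endothelia, and Emcn is a sialomucin of capillary and venous endothelium. These 3 markers are background only: the tables used here give cell-level measures and no gene's expression, so the class name was not checked against marker genes.

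Libraries held 2263 to 18393 cells, and 46 to 263 of these were GEC. Controls 5 and 6 and both UUO libraries hold over 10000 cells each, and the 4 smaller libraries are all Control, so library size and group are partly confounded. The class composition of Controls 3 and 4 was not told apart by a chi-square test (p = 0.0509, against at most 4.09e-41 for the other 14 Control pairs). They were therefore pooled into a single sample, Control 3+4, leaving n = 5 Control against n = 2 UUO samples. A p this near 0.05 does not show that they are 1 sample, and their GEC differed in median genes per cell (962 and 767). A fit with all 8 libraries kept separate was an alternative. Over the 28 pairs of libraries 3399 cell barcodes recurred, in 1 case with both cells GEC, and none of the recurring cells had the same UMIs and genes. A UMI is a unique molecular identifier, a tag counted once for each captured transcript molecule. No label gives separate animals, so p-values measure only how these samples spread, and part of that may be technical.

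GEC were a smaller share of the cells in both UUO libraries than in any Control library. They made up 2.81% of the cells in Control 1, 2.49% in Control 2, 3.84% in Control 3, 4.35% in Control 4, 1.34% in Control 5 and 1.93% in Control 6. In UUO 1 they were 0.250% (46 cells, exact 95% binomial interval 0.183% to 0.333%), and in UUO 2 they were 0.835% (108 cells, 0.686% to 1.01%). The intervals cover counting error only. The groups did not overlap, and the 2 UUO libraries differed from each other by more than counting error, as did Controls 3 and 4 from Controls 5 and 6. In the samples as counted the mean was 2.55% ± 1.07 (SD, n = 5) in Control and 0.543% ± 0.414 (SD, n = 2) in UUO.

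On the scale of log2 odds, where a unit is a doubling of the ratio of GEC to all other cells, GEC fell by 2.40 (SE 0.842, 95% interval -4.06 to -0.73, limma adjusted p = 0.0109 over 28 classes). Of those classes 28.6% fell and 21.4% rose at the same threshold of 0.05, and GEC had the seventh lowest difference of the 8 that fell. The classes next to it in that order were ascending loop of Henle cells (ALOH, -2.45) and Endo (-1.99), and intervals overlapped widely. The exact permutation test over samples gave p = 0.0476 for GEC, the smallest that 21 ways of choosing the UUO samples allow, and 0.111 after adjustment over classes. This smallest p was shared with many other classes, so it does not set GEC apart from them. Those that fell were ALOH, distal convoluted tubule, connecting tubule, collecting duct principal, beta intercalated and transitional intercalated cells. Those that rose were basophils, neutrophils, CD4 T cells, CD8 effector T cells and Th17 cells. The limma interval uses a variance shared by all classes, not the spread of GEC alone. Without UUO 1 the difference was -1.53 and did not pass (limma adjusted p = 0.219), and among the libraries over 10000 cells alone it was -1.82 (adjusted p = 0.0968).

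**Figure D1:**
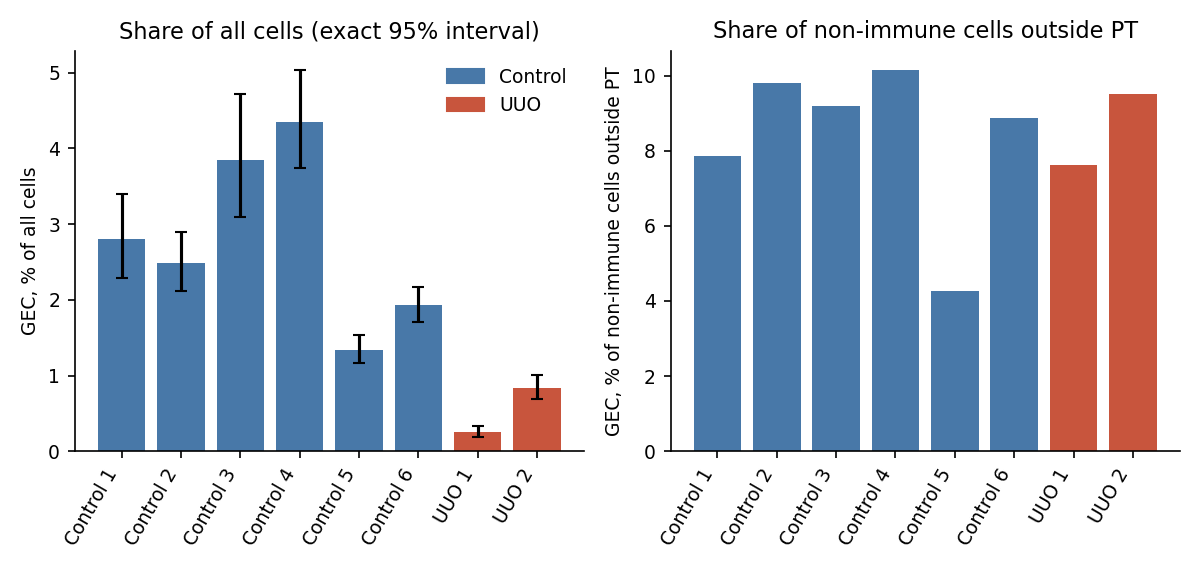
GEC in each library as a percent of all cells (left, bars with exact 95% binomial intervals) and as a percent of the cells that are neither immune nor PT (right), Control in blue and UUO in red. On the left both UUO bars, 0.250% and 0.835%, are under every Control bar; on the right they stand at 7.62% and 9.51%, among the Control bars.

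**Figure D2:**
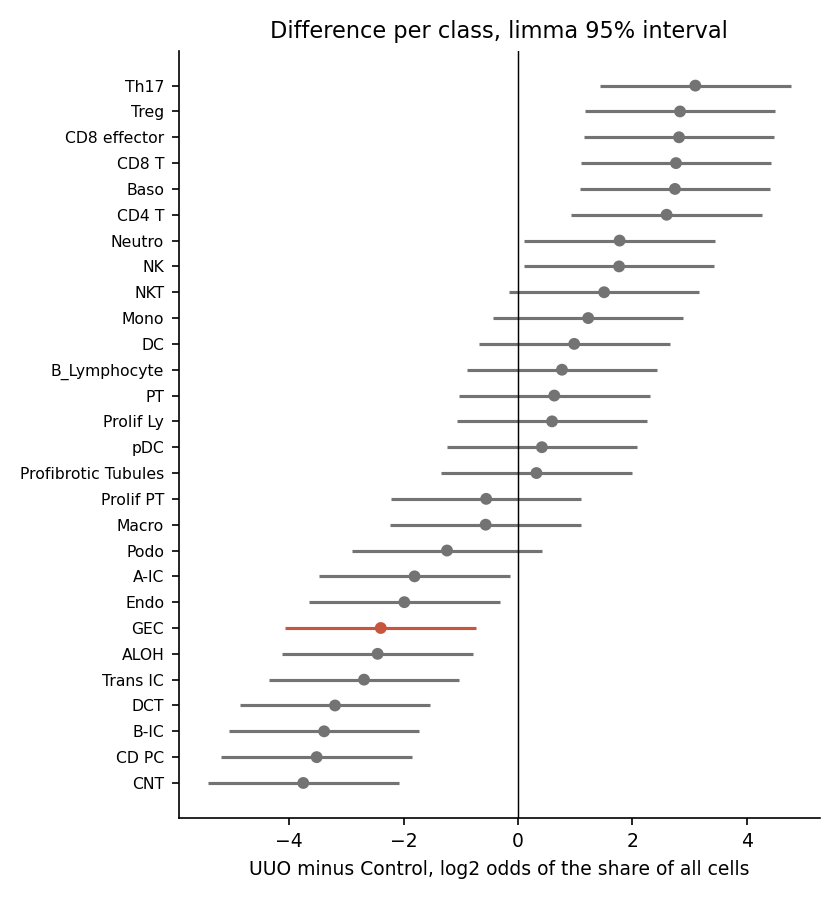
UUO minus Control difference in log2 odds of the share of all cells for the 28 classes, sorted, with limma 95% intervals and GEC in red. GEC at -2.40 lies among the tubule classes from the loop of Henle to the collecting duct and next to Endo.

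The fall depended on the cells GEC were counted against. Cells of the class PT (proximal tubule, the first and bulkiest tubule segment) and leukocytes together make up nearly all cells of the UUO libraries. The authors' classes of proliferating PT cells and profibrotic tubule cells are separate and are not counted in PT here. The cells of all other classes were 3.28% of UUO 1 and 8.79% of UUO 2 against 21.7% to 42.9% of the Control libraries. Among non-immune cells GEC were 0.303% and 1.17% in UUO against 1.42% to 5.02% in the Control libraries (log2 odds difference -2.12, limma adjusted p = 0.0159, where 53.8% of 13 classes were lower and 7.69% higher). Among cells outside PT they were 1.21% and 2.23% in UUO against 3.65% to 8.36% in the Control libraries (difference -2.03, limma adjusted p = 0.00864, where 25.9% of 27 classes were lower and 33.3% higher). The groups did not overlap with either denominator.

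With immune and PT cells both left out, the difference in GEC was no longer seen. GEC were then 7.87% in Control 1, 9.80% in Control 2, 9.18% in Control 3, 10.2% in Control 4, 4.26% in Control 5 and 8.87% in Control 6, and 7.62% in UUO 1 and 9.51% in UUO 2. Both UUO libraries lay inside the Control range, and Control 5 was the lowest of all. Sample means were 8.12% ± 2.30 (SD, n = 5) in Control and 8.56% ± 1.34 (SD, n = 2) in UUO. The log2 odds difference was 0.14 (95% interval -0.85 to 1.13, limma adjusted p = 0.803 over 12 classes, of which 16.7% were lower and 8.33% higher). The -2.40 seen among all cells lies outside this interval, but its own interval (-4.06 to -0.73) overlaps it. The difference between the denominators was not tested. The shares without immune and PT cells rest on 604 and 1136 cells in the UUO libraries. Proliferating PT cells and profibrotic tubule cells stayed in this denominator, and its make-up differed between the groups. Tubule classes downstream of PT (loop of Henle to collecting duct) were 299 of the 604 cells in UUO 1 and 839 of the 1136 in UUO 2. They were 4168 of 5095 in Control 5 and 2500 of 2964 in Control 6. What this did to the GEC share was not tested. In such data fewer GEC in the tissue and fewer GEC released or captured cannot be told apart, and the same holds for more PT cells or leukocytes recovered.

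GEC were set against single neighbouring populations next. Of the 2 endothelial classes GEC was the larger in all 8 libraries, and 62.7% to 88.9% of endothelial cells were GEC in the Control libraries. There were 1.68 GEC per Endo cell in Control 1, 1.80 in Control 2, 5.80 in Control 3, 7.17 in Control 4, 8.04 in Control 5 and 3.93 in Control 6, and 2.88 in UUO 1 and 2.70 in UUO 2. The UUO values sat inside a Control range that itself spanned a wide interval, and Controls 1 and 2 lay below them. The UUO minus Control difference in the log2 ratio was -0.39 (exact permutation p = 0.714), and no difference between the 2 endothelial classes was detectable. Its size rested on which libraries were used: it was -0.11 without Control 5, -0.67 without Control 1, -0.64 without Control 2 and -1.02 in the libraries over 10000 cells. The UUO values rest on 16 and 40 Endo cells.

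Podocytes, the epithelial cells on the outer face of the same capillaries, gave 12.6 GEC per podocyte in Control 1, 26.7 in Control 2, 29.0 in Control 3, 57.3 in Control 4, 3.81 in Control 5 and 10.5 in Control 6. UUO 1 and UUO 2 held 6.57 and 6.35. Control 5, with 57 podocytes, was below both, and Controls 3 and 4 held 3 podocytes each. The log2 ratio differed by -1.13 (exact permutation p = 0.286), and among the libraries over 10000 cells by -0.01.

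Against the summed 7 tubule classes downstream of PT (loop of Henle to collecting duct), GEC numbered 5.21 to 12.3 per 100 such cells in the Control libraries and 15.4 and 12.9 in UUO 1 and 2. Both UUO values were above every Control value, the other way round from the share of all cells. The log2 ratio was 0.59 higher in UUO (exact permutation p = 0.190). It was 0.02 in cells under 10% mitochondrial UMIs, 0.36 without the arm of GEC described at the end, 0.38 without Control 5 and 0.93 in the libraries over 10000 cells. After Benjamini-Hochberg adjustment over the 5 exact tests made between the groups (these 3 ratios and 2 measures of embedding below) the lowest p was 0.357.

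**Figure D3:**
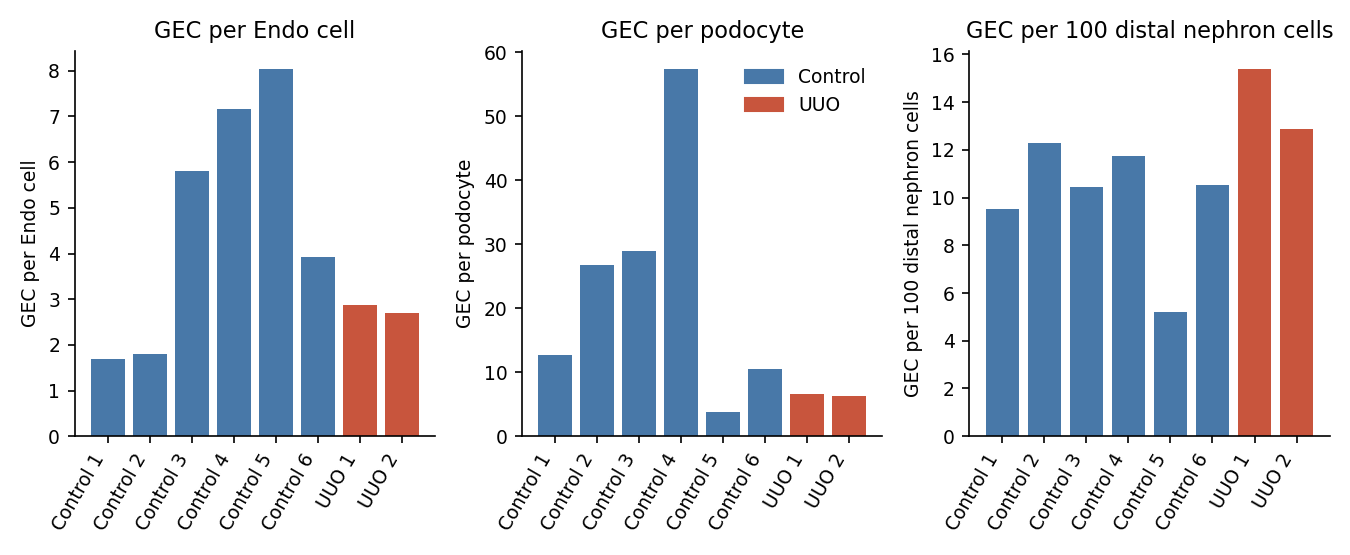
Number of GEC per Endo cell, per podocyte and per 100 cells of the 7 tubule classes downstream of PT, 1 bar per library, Control in blue and UUO in red. UUO bars lie inside the Control range in the first 2 panels and above it in the last (15.4 and 12.9).

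GEC carried few transcripts per cell. Their median UMIs per cell were 897 in Control 1, 936 in Control 2, 1512 in Control 3, 1130.5 in Control 4, 1484 in Control 5, 1150.0 in Control 6, 1317.5 in UUO 1 and 1687 in UUO 2. UUO 2 was the highest, and UUO 1 lay below Controls 3 and 5. Over the samples as counted the mean of medians was 1149.6 ± 244 UMIs (SD, n = 5) in Control and 1502 ± 261 (SD, n = 2) in UUO. The ratio of geometric means was 1.32 (limma adjusted p = 0.336 over 19 classes, of which 10.5% were higher in UUO and 0.0% lower). The log2 difference of 0.40 had an interval of -0.18 to 0.98, and without UUO 2 it was 0.22. Set against the mean of the other classes in the same library it was -0.17, of the other sign. Among 23 classes with enough cells GEC had the second lowest UMIs (1250.4 ± 284, SD over n = 7 samples), between Endo (1072 ± 123, n = 6) and B lymphocytes (1299.8 ± 263, n = 6), from neither of which it was apart by more than the spread.

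Genes detected per GEC had medians of 608, 643.5, 962, 767, 859 and 698 in Controls 1 to 6 and of 755.5 and 975 in UUO 1 and 2. UUO 2 was the highest and UUO 1 was in the middle of the Control values. The ratio of geometric means was 1.19 (log2 difference 0.25, 95% interval -0.21 to 0.71, limma adjusted p = 0.366, with 5.26% of the 19 classes higher), and the log2 difference was 0.07 without UUO 2 and 0.43 without UUO 1. In GEC of similar depth, from 1000 to 2000 UMIs, the median was 772 to 940.0 genes in the Control libraries, 937 in UUO 1 (15 cells) and 878 in UUO 2 (43 cells), so the groups overlapped there too. By genes detected GEC were the sixth lowest of 23 classes (768 ± 130, SD, n = 7), between CD8 T cells (737 ± 111, n = 5) and distal convoluted tubule cells (816 ± 275, n = 7).

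Transcript content of GEC was compared with that of Endo cells of the same library, which share its depth. The ratio of the GEC median to the Endo median in UMIs was 0.885 in Control 1, 0.793 in Control 2, 1.70 in Control 3, 1.11 in Control 4, 1.17 in Control 5, 1.15 in Control 6, 2.15 in UUO 1 and 1.66 in UUO 2. GEC thus held more UMIs than Endo in 5 of 7 samples as counted and fewer in 2. Over these 7 samples the geometric mean ratio was 1.24 for UMIs (exact sign-flip permutation p = 0.156) and 1.21 for genes (p = 0.0625), with adjusted values over 3 measures of 0.234 and 0.188. Neither passed 0.05, and without UUO 1 the log2 difference in UMIs was 0.18 in place of 0.31.

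The gap between GEC and Endo was wider in the UUO samples. On the log2 scale the GEC minus Endo difference in UMIs was 1.10 and 0.73 in UUO and from -0.33 to 0.43 in the 5 Control samples. The groups did not overlap, and the difference between them was 0.85 (exact permutation p = 0.0476, the smallest possible; 0.0714 adjusted over 3 measures). For genes it was 0.63 (exact permutation p = 0.0476, adjusted 0.0714). The gap in mitochondrial percentage was also higher in UUO. GEC minus Endo was 0.56 and 3.07 points in UUO and from -4.36 to 0.32 points in Control. Among the Control samples it did not follow the gap in UMIs. Control 3+4 and Control 5, with UMI ratios of 1.35 and 1.17, had mitochondrial gaps of -3.48 and -4.36 points. Controls 1 and 2, with UMI ratios of 0.885 and 0.793, had 0.32 and 0.23 points. The mitochondrial difference between the groups was 3.42 points (exact permutation p = 0.0952, adjusted 0.0952), which was 2.17 without UUO 1. In cells under 10% mitochondrial UMIs that difference was 0.71 points, and the gap in UMIs was still 0.76. This comparison was added after the values were seen. The Endo median was low in UUO 1, at 614 UMIs (16 cells), against 892 to 1268 in the Control libraries. In UUO 2 it was 1015.5, inside the Control range. With Controls 3 and 4 kept apart, Control 3 (15 Endo cells) lay at 0.76, between the UUO values, and the p for UMIs was 0.107.

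The mitochondrial share of GEC transcripts varied more among the Control libraries than between the groups. Its median was 4.21% in Control 1, 4.38% in Control 2, 2.61% in Control 3, 3.60% in Control 4, 7.40% in Control 5 and 8.45% in Control 6, and 5.68% in UUO 1 and 5.30% in UUO 2. Controls 5 and 6 were the highest, Controls 1 to 4 the lowest, and both UUO libraries lay between them. Sample means were 5.52% ± 2.27 (SD, n = 5) in Control and 5.49% ± 0.270 (SD, n = 2) in UUO, a difference of -0.04 percentage points (95% interval -4.53 to 4.45, limma adjusted p = 0.984; 0.0% of the 19 classes were called in either direction). Among the libraries over 10000 cells alone both UUO values were below both Control values, with a difference of -2.44 points (95% interval -4.87 to 0.0008, limma adjusted p = 0.128).

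The share of GEC with at least 10% mitochondrial UMIs showed the same order. It was 12.9% in Control 1, 24 of 160 cells in Control 2, 10.3% in Control 3, 11.6% in Control 4, 40.1% in Control 5, 44.1% in Control 6, 32.6% in UUO 1 (15 of 46 cells, exact 95% interval 19.5% to 48.0%) and 31.5% in UUO 2 (34 of 108, 22.9% to 41.1%). In all 8 libraries it was lower than the share over all cells, which was 45.0% to 72.7%. GEC ranked ninth lowest of 23 classes by mitochondrial percentage (5.51% ± 1.85, SD, n = 7), between B lymphocytes (5.11% ± 2.02, n = 6) and Endo (6.74% ± 3.17, n = 6). Within samples GEC minus Endo was -0.63 points (exact sign-flip permutation p = 0.484), lower in 4 samples and higher in 3. It was -0.014 without Control 5 and -1.25 without UUO 1. When GEC at or above 10% were left out together with all other such cells, the fall in the share of all cells was -2.44 (limma adjusted p = 0.0200).

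In the authors' 2-dimensional embedding (UMAP, coordinates with no unit in which only neighbourhood can be read) GEC formed 1 body of cells beside Endo. The embedding holds no cells of the class PT, so a neighbour could be of any class but that one. Of the 15 nearest embedded cells to each GEC, 97.3% were GEC, 2.25% Endo, 0.162% proliferating PT cells and 0.133% ALOH cells. Podocytes were not among them. The Endo share among neighbours was 1.38% to 3.37% in the Control samples and 2.75% and 3.33% in UUO, a difference of 0.83 points (exact permutation p = 0.238), which was 0.46 without UUO 2, 1.37 over 5 neighbours, 1.35 in cells under 10% mitochondrial UMIs and 1.42 without the arm of GEC described next. The distance between the group means of the median positions was 0.246 units, under the median distance of a GEC from the centre of its class, 0.558 (exact permutation p = 0.190). It was 0.0873 in cells under 10% mitochondrial UMIs, 0.113 without the arm and 0.159 without UUO 1. On the second coordinate Controls 1 and 2 (medians -6.48 and -6.47) stood apart from the other 6 libraries (-6.05 to -5.90). By position 61 of the 1154 GEC were nearer to the Endo centre than to their own, and 3 lay more than 3 units from it.

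The body had an arm of GEC at low values of the first coordinate, defined here as under 9.7 after the embedding was seen and so given as a description. It held 171 GEC, of which 72.5% had at least 10% mitochondrial UMIs, against 19.7% of the other 983. These percentages pool the cells of all libraries. By library the median mitochondrial percentage of the arm was 6.51% in Control 1 and 6.12% in Control 2. Elsewhere it was 11.4% (UUO 1) to 31.5% (Control 3, 2 cells). In every library it was above the median of the other GEC. The arm made up 3.96% of GEC in Control 1, 8.75% in Control 2, 2.30% in Control 3, 8.14% in Control 4, 21.7% in Control 5, 20.5% in Control 6, 30.4% in UUO 1 (14 cells, exact 95% interval 17.7% to 45.8%) and 20.4% in UUO 2 (22 cells, 13.2% to 29.2%). The 4 libraries over 10000 cells, of both groups, were thus all above the 4 smaller ones, which are all Control.

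Arm cells had the higher median UMIs in 7 of 8 libraries. The medians were 1468 in the arm (4 cells) against 887 outside it in Control 1, 3020.5 against 906.5 in Control 2 and 1665.5 (2 cells) against 1512 in Control 3. They were 3332 in the arm against 1371.5 outside it in Control 5, 1916 against 1057 in Control 6, 2085 against 845 in UUO 1 and 3317.5 against 1575.5 in UUO 2. In Control 4 the order was the other way, 882 against 1176. Without the arm the UMI difference between the groups was 0.09 in place of 0.40, and the share of all cells fell by 2.63 (limma adjusted p = 0.00581). The GEC minus Endo gap was then 0.54 higher in UUO for UMIs (exact permutation p = 0.0952) and 0.49 for genes (p = 0.0476). What the arm cells express was not tested.

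**Figure D4:**
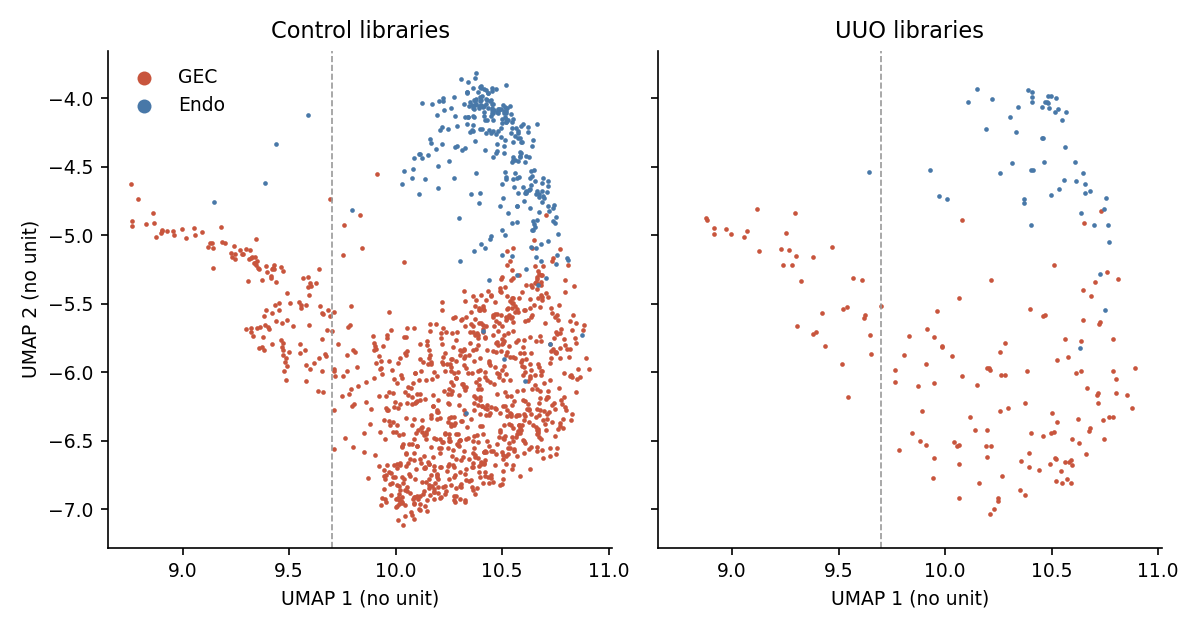
Positions of GEC (red) and Endo (blue) cells in the authors' embedding, Control libraries on the left and UUO libraries on the right; axes are UMAP coordinates with no unit, and the dashed line marks 9.7 on the first. GEC of both groups cover the same body and the same arm left of the line, and 3 GEC and 1 Endo cell lie outside the plotted area.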

How the data were processed

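UMIs per cell and genes per cell were made by the authors and were taken as raw counts with no normalization. Their column names state no scale, and the UMIs of 100.0% of GEC are whole numbers. The deposited mitochondrial value is a percent of UMIs in each cell. The embedding coordinates are a deposited score without unit for 25200 cells, all 1154 GEC among them. Classes and sample names are the authors'. The submitters' processing notes name Seurat 4.0.1, Cell Ranger 6.0.1 and mm10. How cells were filtered or classes called is not stated there, doublets were left as the authors left them, and gene-level counts are not analysed here. The table holds cells of 298 to 2998 genes and up to 50.0% mitochondrial UMIs. All per-sample columns were used.

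The tested value was 1 number per sample. Shares were fitted as log2((n + 0.5)/(N - n + 0.5)) over all classes with limma 3.58.1 in R 4.3.3, and medians (log2 for UMIs and genes) over the 19 classes for which at least 2 samples per group held 20 cells or more, with Benjamini-Hochberg adjustment at 0.05. Ratios, embedding values and GEC minus Endo differences (at least 10 cells of each class) had two-sided exact permutation tests. The order of classes used those for which 4 samples or more held 20 cells. edgeR 4.0.16 was an alternative. Functions were tested on simulated data. Other classes were named by a rule: Endo, podocytes, the 3 classes most frequent among neighbours and those adjacent in order. The class, the lists and the tests were chosen with earlier results of these data known. Depth per library was 75506 to 485412 UMIs over its GEC.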

Additional observations from a re-analysis of the deposited data

Results flagged for a closer look

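In UMIs and genes the gap between GEC and Endo cells of the same library was wider in the UUO samples. The comparison was added after the values were seen, and it did not pass 0.05 after adjustment. In UMIs the UUO minus Control difference of the log2 gap was 0.85, and in genes 0.63, each at the smallest exact permutation p of 0.0476 and at 0.0714 after adjustment over 3 measures. Both UUO samples were above all 5 Control samples. With 8 samples kept separate this no longer held for UMIs, where the highest Control gap was 0.76 and the lowest UUO gap 0.73 (exact permutation p = 0.107). For genes the groups stayed apart (0.46 against 0.63, exact permutation p = 0.0357, adjusted 0.107). Endo medians were low in UUO, at 614 and 1015.5 UMIs against 892 to 1268 in the Control libraries. Without the arm of GEC the gap differed by 0.54 in UMIs and 0.49 in genes (exact permutation, adjusted p = 0.143 for each). The gap in mitochondrial percentage also differed, by 3.42 points (exact permutation p = 0.0952), and its part in the others was not tested beyond leaving out cells of at least 10%. Without UUO 1, whose Endo median rests on 16 cells, the values were 0.66 and 0.53, where no p under 0.167 is possible. Among the libraries over 10000 cells they were 0.71 and 0.51, and in cells under 10% mitochondrial UMIs 0.76 and 0.63.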

How the results depend on the processing

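The share of GEC among all cells was lower in UUO under all 25 alternatives but 1, the denominator of non-immune cells outside PT (0.14). It ran from -3.27 to -1.53 when each library was left out, and it did not pass 0.05 without UUO 1, in the libraries over 10000 cells (-1.82), with exact permutation adjusted over classes (-2.40, p = 0.111) or with the sample number as a replicate block (-2.56, limma adjusted p = 0.0532). The labels do not say that equal numbers share an animal or day, so the block has no basis in the labels. Deviations of equal-numbered samples correlated at -0.25 and -0.0037, which with 2 UUO samples cannot decide whether they do. In the block fit only Controls 1 and 2 are set against UUO 1 and 2. With the block GEC UMIs passed (0.70, limma adjusted p = 0.0175). Set against the other classes of the sample, GEC UMIs (-0.17) and genes (-0.20) had the other sign. The mitochondrial difference had no stable sign: 0.38 with 8 samples, 1.42 in cells of at least 1000 UMIs, 0.19 with means, 1.19 with the block, 1.05 against other classes, and -0.37 to 0.69 with libraries left out. In cells of at least 1000 UMIs GEC against Endo numbers gave 0.86 and GEC minus Endo UMIs -0.026; with means GEC minus Endo mitochondrial percentage was 0.20. The cause of these changes was not tested. Genes in cells of 1000 to 2000 UMIs could not be fitted, since UUO 1 holds 15 such GEC. The 46 GEC of UUO 1 limit every comparison.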

Other observations

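GEC with few genes made up more of the class in each Control library than in the UUO libraries, with no test made. Control 4 (4 of 172 cells) and UUO 1 (1 of 46) hardly differed, so this order rests on single cells. Cells under 400 genes were 16.8% of GEC in Control 1, 8.13% in Control 2, 6.90% in Control 3, 2.33% in Control 4, 3.69% in Control 5, 5.32% in Control 6, 2.17% in UUO 1 and 1.85% in UUO 2, which is 1 and 2 cells in the UUO libraries. At the other end 10 GEC had over 2500 genes.

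GEC of different samples were mixed in the embedding to different degrees. Among the 15 nearest GEC of a cell, those of its own sample were 14.0% in Control 1, where 8.67% of other GEC are from it, and 29.3% in Control 3+4 against 22.4%. They were 18.2% against 13.8% in Control 2, 20.7% against 18.7% in Control 5 and 23.7% against 22.7% in Control 6. In UUO 1 they were 3.91% against 3.90% and in UUO 2 9.88% against 9.28%. The excess was smaller in Control 5 and Control 6 than in the other Control samples, and no test was made.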
